A study of Arabidopsis thaliana with 4 samples.

Results

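Start regions were defined as stretches of accessible chromatin that cover the annotated start of exactly 1 gene, lie outside the pericentromeres and carry a peak in each of 4 libraries of Arabidopsis thaliana root tips. Peaks of the 4 libraries were merged where they overlapped by 1 bp, which gave 27679 merged regions, and 18340 of these were called in all 4 libraries with a width over 20 and under 10000 bp. Of the 18340 shared regions, 9199 were start regions, 2083 covered several gene starts, 5122 covered no gene start and 1936 were pericentromeric. The 9199 start regions belonged to 9175 genes, since 24 genes had 2 start regions each. The study grew Col-0 wild-type plants under osmotic stress, imposed with sorbitol in the medium, or on control medium without it. Nuclei of 5 mm root tips were profiled by 10x multiome sequencing, which counts RNA molecules and transposition events in open chromatin of the same nucleus. Each group held 2 libraries, which the study calls biological replicates. Cell types were not separated here, so a value of a library sums over all its nuclei, and fewer cells of a type and less signal per cell cannot be told apart.

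In plants, the stretch just before a gene start is usually free of nucleosomes when the gene can be transcribed, and a transposase then cuts there more often than in the rest of the gene. Such a promoter-proximal stretch holds the core promoter, with a TATA box in some genes, and sites for transcription factors. Under water deficit, abscisic acid releases SnRK2 kinases from PP2C phosphatases, and bZIP factors that bind ACGTG elements then switch on protective genes. An accessible start is a condition for transcription rather than a measure of it, so open starts are also known at genes with little RNA.

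Nuclei were kept with 1000 to 25000 RNA counts and 1000 to 100000 peak counts, both ends left out. This left 6564 and 5575 nuclei in stress replicates 1 and 2, against 1480 and 4767 in control replicates 1 and 2. Peak counts of these nuclei came to 35252513 and 31118001 in the stress libraries and 11192073 and 28111157 in the control libraries. The RNA counts were 31717321 and 26852957 under stress and 7982634 and 20669871 in controls. Control replicate 1 stood apart, with 43.1% of its barcodes kept as nuclei, against 71.9% to 84.7% in the other libraries, and with 19858 peaks called, against 24317 to 25001. Libraries shared between 29 and 83 barcodes per pair, at most 1.34% of the smaller one. Markers of 12 root cell types and cell cycle states were looked up, and none of the lists had a member at 0 in any library except 1 atrichoblast marker in stress replicate 1.

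The 200 bases before the annotated start are shown for 6 genes on which the results turn, 5′ to 3′ on the strand of the gene. HK1 had the largest positive change of accessibility, CAB1 and bHLH38 had higher RNA under stress, WRKY38 and BIP3 had lower RNA, and NF-YB2 had the most accessible start region. Capitals mark ACGTG (the core that bZIP and many bHLH factors bind), TTGAC (the core of the W box that WRKY factors bind), TATAAA (the usual core of promoters that have such a box), GGGCC (the core of a site of TCP factors), AAACCCTA (the telo box) and GAANNTTC (part of a heat shock element), on either strand. The letters come from the RefSeq genome TAIR10.1.
HK1: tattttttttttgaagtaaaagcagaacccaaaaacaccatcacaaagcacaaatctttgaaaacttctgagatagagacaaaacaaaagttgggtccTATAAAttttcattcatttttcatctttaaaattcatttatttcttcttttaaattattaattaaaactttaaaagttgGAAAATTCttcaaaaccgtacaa
CAB1: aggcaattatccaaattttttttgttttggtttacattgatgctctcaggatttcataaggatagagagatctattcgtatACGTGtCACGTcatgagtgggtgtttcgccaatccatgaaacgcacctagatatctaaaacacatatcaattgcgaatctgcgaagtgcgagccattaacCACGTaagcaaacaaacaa
bHLH38: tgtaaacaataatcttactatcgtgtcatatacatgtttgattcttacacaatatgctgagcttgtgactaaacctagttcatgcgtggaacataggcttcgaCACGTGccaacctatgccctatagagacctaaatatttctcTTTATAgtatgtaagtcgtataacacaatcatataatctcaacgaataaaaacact
WRKY38: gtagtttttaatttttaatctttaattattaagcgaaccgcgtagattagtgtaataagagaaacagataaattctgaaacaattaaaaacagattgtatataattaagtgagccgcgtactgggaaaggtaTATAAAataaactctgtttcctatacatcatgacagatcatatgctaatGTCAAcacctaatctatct
BIP3: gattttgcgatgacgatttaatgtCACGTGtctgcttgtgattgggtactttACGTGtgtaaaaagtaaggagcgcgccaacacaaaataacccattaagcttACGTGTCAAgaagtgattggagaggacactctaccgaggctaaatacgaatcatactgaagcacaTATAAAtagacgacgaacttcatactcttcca
NF-YB2: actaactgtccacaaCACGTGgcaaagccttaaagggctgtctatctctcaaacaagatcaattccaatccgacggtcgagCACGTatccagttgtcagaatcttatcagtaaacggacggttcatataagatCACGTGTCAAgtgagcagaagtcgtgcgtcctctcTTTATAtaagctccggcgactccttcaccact
The HK1 stretch (chr2:7748503-7748702, minus strand) held 1 TATAAA and 1 GAANNTTC, and no ACGTG. The CAB1 stretch (chr1:10477685-10477884, plus strand) held 3 matches of ACGTG and no other of these motifs. In bHLH38 (chr3:21085246-21085445, minus strand) the palindrome CACGTG gave 2 matches of ACGTG, 1 on each strand, beside 1 TATAAA. The WRKY38 stretch (chr5:7496991-7497190, minus strand) held 1 TTGAC and 1 TATAAA. BIP3 (chr1:2931851-2932050, minus strand) had 4 matches of ACGTG and NF-YB2 (chr5:19309027-19309226, plus strand) had 5, each with 1 TTGAC and 1 TATAAA. A match describes these letters and is not a site shown to be bound.

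Start regions were narrow and placed around the start. Their median width was 902 bp (10th to 90th percentile 799 to 959), close to the 920 bp of regions with several starts. The start lay inside 9060 of the 9199 regions, and the others reached only the interval the files give for a gene with several annotated starts. A median of 486 bp lay upstream of the start and 409 bp downstream of it, and the centre of the region lay upstream of the start in 60.4% of cases. At 500 bp upstream 46.3% of the regions with the start inside still spanned the position, against 26.2% at 500 bp downstream. The GC content of start regions had a median of 35.7%, between the 38.7% of regions with several starts and the 32.9% of regions without a start.

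Genes with a start region were mostly protein coding and mostly expressed. Protein-coding genes had 8678 of the regions (94.3%), and 31.5% of all such genes had one, whereas 9.66% of long noncoding RNA genes and 13.8% of tRNA genes did. Among protein-coding genes outside the pericentromeres, 397 of 4879 genes with a mean RNA level of at most 0.1 CPM (counts scaled to library size with TMM factors) had a start region, or 8.14%. The share was 30.5% for genes at 1 to 5 CPM, 45.0% at 5 to 20 CPM, 54.4% at 20 to 100 CPM and 53.6% above 100 CPM. A start region was thus more frequent with more RNA up to about 20 CPM and then changed little, and 77.6% of the genes at or under 0.1 CPM had no peak in any library at their start. Genes with a start region had median RNA levels of 17.8 CPM in both stress libraries, against 16.9 and 17.35 CPM in the controls. Genes without any peak at the start had medians of 0.0302 and 0.0354 CPM under stress and of 0 in both controls. These 13683 genes were of every type and also lay in the pericentromeres, unlike the protein-coding genes counted by RNA level above. The contrast of these medians thus mixes gene type with the presence of a peak.

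**Figure D1:**
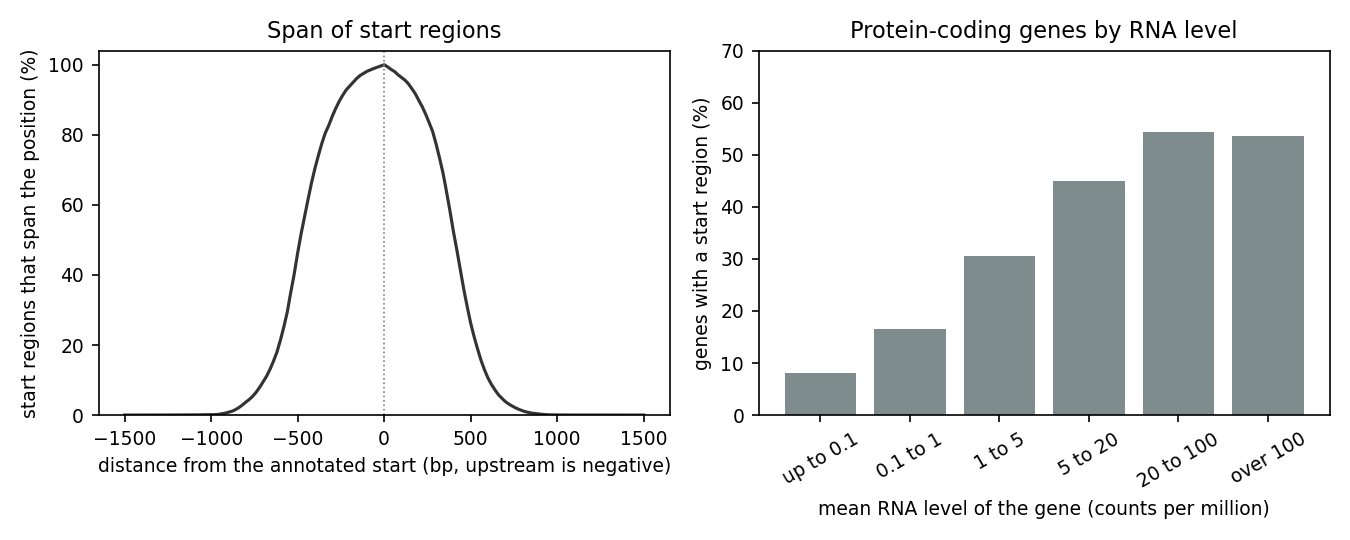
Left, the percentage of start regions (with the start inside) that span each distance from the annotated start, in bp with upstream negative; right, bars for the percentage of protein-coding genes outside the pericentromeres that have a start region, by mean RNA level in CPM. The span falls to 46.3% at 500 bp upstream and 26.2% at 500 bp downstream, and the share of genes grows from 8.14% in the lowest RNA class to over 50% above 20 CPM.

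The level of accessibility of a start region was set beside the RNA of its gene. The level of a region is given as its CPM per kb of covered length, where the covered length is the number of bases inside the region that the peaks of a library cover. The median level was 59.9 and 59.97 in the stress libraries and 60.3 and 59.98 in the control libraries, with a range over regions of 13.9 to 237. Level and RNA of the gene had a Spearman correlation of 0.24 and 0.25 under stress and 0.24 and 0.26 in controls, across 9175 genes that share libraries and are not independent. In the fifth of genes with the lowest levels the median RNA level was 8.68 and 8.82 CPM under stress and 8.68 and 8.44 CPM in controls, and in the fifth with the highest levels it was 27.1 and 27.5 CPM under stress and 25.3 and 27.4 CPM in controls. RNA under 1 CPM in stress replicate 1 was found for 23.1% of the least open starts and 10.3% of the most open ones.

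The highest levels belonged to NF-YB2 (237 CPM per covered kb), GBF2 (219), ARLA1D (217), OXS2 (207) and AT1G01830 (206). NF-YB2 encodes a subunit of the trimer that binds CCAAT boxes, and GBF2 encodes a bZIP factor that binds the G-box CACGTG. The start region of NF-YB2 (chr5:19308403-19309272) had 196 and 199 CPM in stress libraries, against 189 and 206 CPM in control libraries. Its RNA was moderate, with 17.2 and 17.8 CPM under stress and 12.1 and 18.1 CPM in controls, and for both measures the groups overlapped. The lowest levels were those of AT2G01020, an annotated ribosomal RNA gene at the end of chromosome 2 (13.9 CPM per covered kb), of AT4G10280 (14.7), AT5G43410 (15.9), FLA5 (16.2) and AT5G06735 (16.2). Of these, AT4G10280, a cupin-like protein gene, still had 22.1 and 22.3 CPM of RNA under stress and 23.0 and 25.4 CPM in controls.

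The comparison of stress with control asked whether accessibility at gene starts changed under osmotic stress, with libraries as replicates. The test was fitted on all 18340 shared regions with edgeR's quasi-likelihood test, and called means an adjusted p (Benjamini-Hochberg) under 0.05. It called 0 of the 9199 start regions, with 0.0164% of all shared regions called higher under stress and 0.0109% called lower (0.0273% in either direction). The lowest adjusted p of a start region was 0.0540. Without adjustment, 1477 start regions (16.1%) had p under 0.05, 773 higher and 704 lower, against 17.5% of all shared regions. DESeq2 called 131 start regions higher and 88 lower, against 1.73% and 1.11% of all shared regions (2.84% in either direction). Both stress libraries lay on the same side of both controls in CPM for 4632 start regions (50.4%, 2244 higher and 2388 lower), against 50.8% of all shared regions. In CPM per covered kb this held for 4590, against 50.7% of all. The shares of start regions were thus close to those of all shared regions.

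The number of calls differed with the library that was left out. Without control replicate 1, edgeR called 892 start regions (476 higher, 416 lower), against 11.6% of all shared regions. Without control replicate 2, it called 1076 (581 higher, 495 lower), against 13.3% of all. The regions called by these fits were only partly the same, and their overlap was not counted over all shared regions. Without either stress library, no start region was called. Where a group is left with 1 library, that library is assumed to vary like the replicates of the other group.

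The changes at gene starts were small. The log2 change of accessibility, stress over control, had an SD of 0.132 over start regions, and its 10th to 90th percentile ran from −0.15 to 0.16. The lowest value was −0.70 and the highest 0.93, and 32 regions (0.348%) lay beyond 0.5 in either direction, against 0.288% of regions with several starts, 0.742% of regions without a start and 7.02% of pericentromeric regions. The median absolute log2 difference was 0.06 between the stress replicates and 0.09 between the control replicates, and it was 0.08 between the group means. For RNA of the same genes, these medians were 0.07, 0.27 and 0.27. A mean of a pair of libraries varies less than a single library, so these medians are not on an equal footing.

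**Figure D2:**
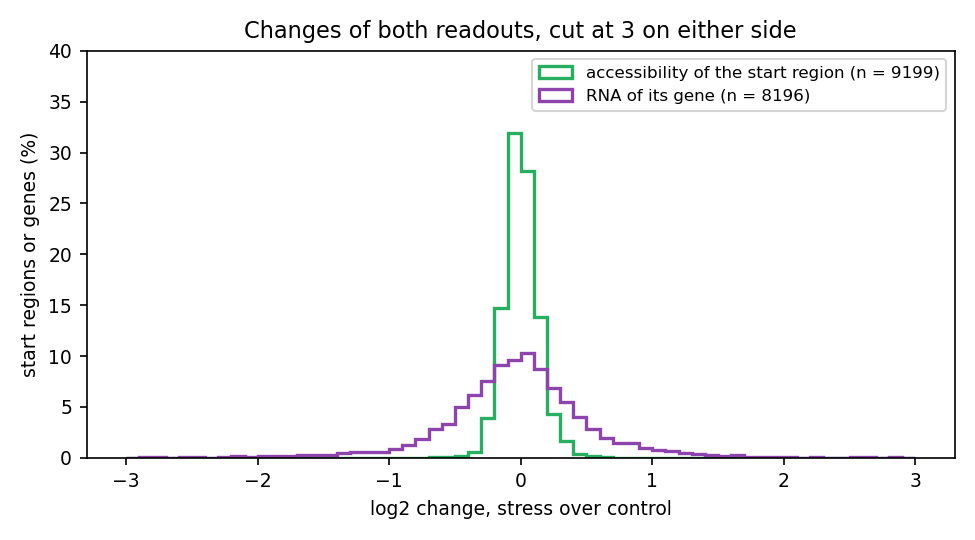
Percentage of start regions (green, n = 9199) and of their tested genes (purple, n = 8196) at each log2 change, stress over control, in steps along the x axis. Accessibility changes stay between −0.70 and 0.93, while RNA changes run from −5.35 to 5.61 and are cut at 3 on either side.

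Since edgeR called no start region, the 5 largest fitted changes in each direction are given as values. DESeq2 called all 10 of these regions, with adjusted p from 7.05e-13 (AT3G15670) to 0.0354 (AT1G20132). HK1 encodes a histidine kinase proposed as an osmosensor. Its start region (chr2:7748275-7749249) had 17.7 and 11.1 CPM under stress, against 8.26 and 7.18 CPM in controls, a log2 change of 0.93 ± 0.23 (SE, 2 against 2 libraries) with an adjusted p of 0.149 by edgeR. The groups did not overlap, but stress replicate 1 was well above stress replicate 2, and without stress replicate 1 the change was 0.54. The peaks of HK1 covered 785 and 455 bp of the region under stress, against 384 and 350 bp in controls. Per covered kb, HK1 had 22.6 and 24.4 CPM under stress and 21.5 and 20.5 CPM in controls, and with covered length as an offset the change was 0.16 ± 0.10. HK1 RNA was called higher under stress, at 27.9 and 29.4 CPM, against 6.90 and 9.33 CPM in controls (log2 change 1.79 ± 0.18, edgeR adjusted p 0.032).

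The next values were those of TTN9 (0.78), a gene needed for embryo and endosperm development, of AT4G06935, a long noncoding RNA gene, of AT3G15670, which encodes a late embryogenesis abundant protein, and of AT4G20820, which encodes a berberine bridge enzyme-like protein (each 0.65). AT4G06935 (chr4:10811260-10812288) had 56.2 and 54.6 CPM under stress and 38.3 and 33.3 CPM in controls, a change of 0.65 ± 0.08 (edgeR adjusted p 0.0633). Its peaks covered 932 and 925 bp under stress and 938 and 922 bp in controls, so its change was also 0.65 with the covered length as an offset. RNA of AT4G06935 was near 0, at 0.121 and 0.177 CPM under stress and 0.128 and 0.104 CPM in controls. AT3G15670 had 95.0 and 105 CPM under stress and 64.5 and 63.1 CPM in controls, an adjusted p of 0.0540 by edgeR, and 0.29 with covered length as an offset. TTN9 and AT4G20820 had 0.35 and 0.30 with that offset.

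The lowest values belonged to AT3G13510 (−0.70), HOL1 (−0.68), AT1G20132 (−0.67), AT2G01023 (−0.65) and AT5G45220 (−0.60). AT3G13510, annotated as a putative carboxyl-terminal peptidase gene, had 22.4 and 17.8 CPM under stress and 34.1 and 31.8 CPM in controls (edgeR adjusted p 0.106). Its peaks covered 437 and 381 bp under stress, against 669 and 652 bp in controls, and with the offset its change was −0.02. HOL1 encodes a methyltransferase that releases methyl halides, and its change was −0.54 with the offset. AT1G20132, a GDSL lipase gene with no RNA count in any library, had 396 and 428 covered bp under stress and 868 and 859 bp in controls, and its change was 0.40 with the offset. The sign for AT1G20132 thus turned with the covered length. AT2G01023 (chr2:9558-10477), an uncharacterized gene beside the ribosomal RNA gene AT2G01020, had 48.9 and 47.5 CPM under stress and 80.2 and 71.7 CPM in controls. Its value is uncertain, because near-identical ribosomal copies could share reads there.

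AT5G45220 was the one of these 10 whose gene was called lower in RNA. It encodes a TIR-NBS-LRR protein, a class of immune receptors. Its start region (chr5:18300684-18301570) had 33.9 and 33.5 CPM under stress, against 49.9 and 51.8 CPM in controls, a change of −0.60 ± 0.07 with an adjusted p of 0.0540 by edgeR. RNA of AT5G45220 was 2.60 and 3.01 CPM under stress and 7.28 and 6.04 CPM in controls, a change of −1.23 (edgeR adjusted p 0.0498).

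Covered length was similar across the 4 libraries in most start regions. The ratio of the longest to the shortest covered length over the 4 libraries had a median of 1.04, and it was over 1.5 in 52 start regions (0.565%), with 2.41 as the highest. Across start regions, the log2 change of covered length and that of accessibility had a Spearman correlation of 0.30, as a description over 9199 regions of the same libraries. With covered length as an offset, edgeR called 8 start regions, 5 higher and 3 lower, against 0.131% of all shared regions. AT4G06935 (adjusted p 0.0464) was among the 5, and AT2G01023 (0.0464) and AT5G45220 (0.0492) were among the 3. Peaks were called in each library alone at its own depth, and the part of this in the covered lengths was not tested.

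**Figure D3:**
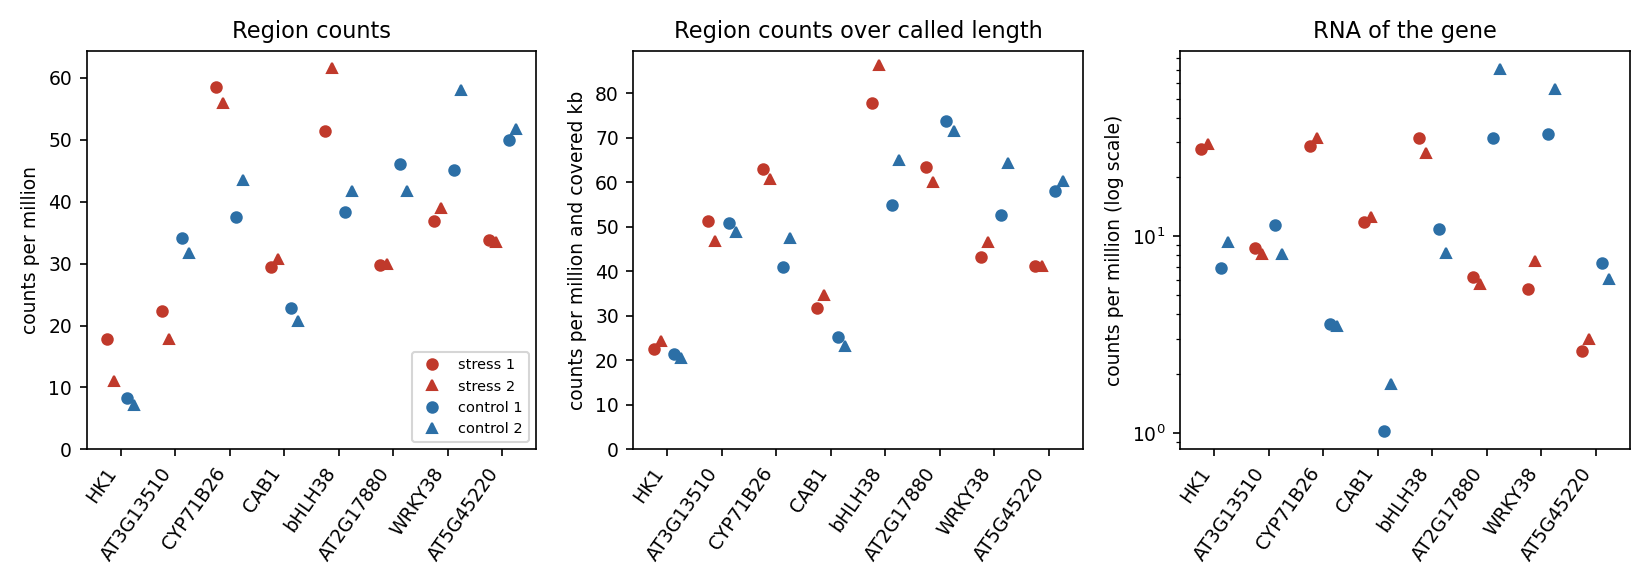
CPM of the start region, CPM per covered kb and RNA CPM (log axis) for 8 genes named in the text, with 1 point per library, stress libraries left of control libraries. HK1 and AT3G13510 differ between the groups in CPM and much less per covered kb, where HK1 still does not overlap and AT3G13510 does. CYP71B26, CAB1, WRKY38 and AT5G45220 do not overlap between the groups in either measure.

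RNA was tested for 8196 genes with a start region in a fit over 20341 genes. Of the 8196, 243 (2.96%) were called higher under stress and 85 (1.04%) lower, against 3.5% and 1.26% of all tested genes. DESeq2 called 448 higher and 415 lower, against 6.45% and 5.61% of all. Without either stress library edgeR called none of them, without control replicate 1 it called 4394 of 8269 (53.1%), and without control replicate 2 it called 4294 of 8262 (52.0%). Over all tested genes these fits called 52.1% and 49.8%. The number of RNA calls thus also differed with the library that was left out, and the calls named below are those of the fit with all 4 libraries.

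In the fit with all 4 libraries, start regions of genes with called RNA leaned in the direction of the RNA, by small amounts. The 245 start regions of genes called higher had a median log2 change of accessibility of 0.090, and 74.7% of them were above 0, while the median log2 change of their RNA was 1.22. Over the 7889 regions of tested genes that were not called, the median was −0.0063, and 47.6% were above 0. The 85 regions of genes called lower had a median of −0.032, and 40.0% were above 0, at a median RNA change of −1.22. Both stress libraries were above both controls in CPM for 127 of the 245 regions and below them for 23. For the 85 regions, 29 were below and 16 above. Over all start regions 24.4% were above and 26.0% below, while the 245 gave 51.8% above and 9.39% below and the 85 gave 18.8% above and 34.1% below. Of all shared regions, 25.4% were above and 25.4% below. Across the 8196 genes with both changes, the Spearman correlation was 0.18, as a description of genes that share libraries.

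These medians were also taken with the covered length as an offset and without either control library. With the offset the median of the 245 regions was 0.092, and that of the 85 regions was −0.044, with 38.8% above 0. With control replicate 1 left out it was 0.099, and with control replicate 2 left out it was 0.093. The median of the 85 regions was −0.056 in the fit that left out control replicate 1, and it was −0.0067 in the one that left out control replicate 2, where 49.4% were above 0. Regions of genes not called had medians of −0.0047 without control replicate 1 and −0.0072 without control replicate 2, where 48.1% were above 0. Without control replicate 2 the 85 regions thus did not lean lower than those of genes not called. No start region was called in both readouts by edgeR, since none was called in accessibility. By DESeq2, 49 were called in both, 27 of them higher in both, 16 lower in both, 4 with a more accessible region and lower RNA, and 2 the other way round. Calls in both readouts were not counted outside the start regions, so no background share stands beside the 49.

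**Figure D4:**
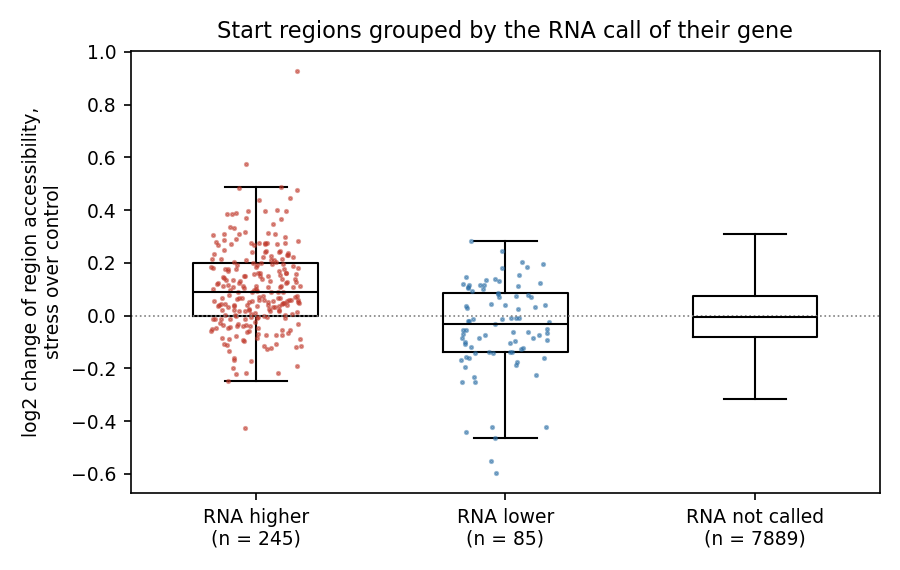
Log2 change of accessibility, stress over control, of start regions grouped by the edgeR call of their gene's RNA as higher, lower or not called. Regions of genes whose RNA was not tested are left out. The medians are 0.090 for genes called higher, −0.032 for genes called lower and −0.0063 for genes not called, and the groups overlap widely.

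Among the 49, a P450 gene of unknown substrate had the largest RNA rise. The start region of CYP71B26 (chr3:9634324-9635272) had 58.5 and 56.0 CPM under stress, against 37.6 and 43.5 CPM in controls, a log2 change of 0.48 ± 0.08 (edgeR adjusted p 0.0948). Its RNA was 28.8 and 31.6 CPM under stress and 3.58 and 3.49 CPM in controls, a change of 3.10 (edgeR adjusted p 0.032). The opposite pattern was that of GBF1, which encodes a bZIP factor that binds G-boxes. Its start region had 56.4 and 54.6 CPM under stress and 32.1 and 40.8 CPM in controls, a change of 0.58, while its RNA had 44.1 and 46.5 CPM under stress and 85.7 and 196 CPM in controls, a change of −1.64 that DESeq2 called and edgeR did not (edgeR adjusted p 0.0639). The peaks of GBF1 covered 606 and 625 bp under stress and 391 and 503 bp in controls, and with the offset the change of its region was 0.15. CYP71B26 and GBF1 were chosen after their values were seen, as were bHLH38, bHLH39, NAS2, AT2G17880, GDPD2, BIP3, PDIL1-2 and P58IPK below.

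Of 302 listed genes in 11 groups of known function, 124 had a start region, and edgeR called the accessibility of none of them. The counts for each group stand beside the background over all start regions, where 16.1% had an unadjusted p under 0.05 in accessibility, and 2.96% of the tested genes were called higher in RNA and 1.04% lower. The share with a start region ran from 19.2% of the genes of ion and phosphate transport and 24.0% of the water channels to 69.0% of the constitutive genes. Genes for light harvesting and photosynthesis, known mainly from green tissue, moved most in RNA. Of the 38 genes of this group, 16 had a start region, 13 of 15 tested were called higher in RNA under stress and 0 lower, and the median RNA change was 2.21. Their start regions had a median accessibility change of 0.17, with 8 regions higher and 2 lower at an unadjusted p under 0.05 by edgeR, against a median of −0.0034 over all start regions. RNA summed over the 38 genes was 1264 and 1242 CPM under stress and 248 and 373 CPM in controls, with 2 and 3 of them at 0 under stress and 5 and 4 in controls. The part of this RNA, known from green tissue, in the region changes was not tested.

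CAB1 encodes a chlorophyll-binding protein of the light-harvesting antenna. Its start region (chr1:10477430-10478476) had 29.4 and 30.7 CPM under stress and 22.8 and 20.7 CPM in controls, a change of 0.48 ± 0.10 (edgeR adjusted p 0.118), and 0.47 with the offset. CAB1 RNA was 11.9 and 12.5 CPM under stress and 1.02 and 1.77 CPM in controls, a change of 3.02 (edgeR adjusted p 0.032). RCA encodes rubisco activase, which keeps the carbon-fixing enzyme active. Its start region had 66.5 and 65.2 CPM under stress, against 50.6 and 50.3 CPM in controls, a change of 0.39 ± 0.05 (edgeR adjusted p 0.0644), and 0.22 with the offset. PSAD-1, a subunit gene of photosystem I, went the other way in accessibility, with 72.0 and 71.9 CPM under stress and 90.5 and 77.9 CPM in controls, a change of −0.22, while its RNA change of 2.53 was called (edgeR adjusted p 0.0362). A rise in RNA in this group thus came with region changes of both signs.

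Hormone and osmotic groups had small median accessibility changes at their starts. Of the 29 genes of abscisic acid and osmotic signalling, 18 had a start region, with a median accessibility change of 0.037. At an unadjusted p under 0.05 by edgeR, 2 of these regions were higher and 0 lower, and 0 of 17 tested genes were called higher in RNA and 1 lower. Of 13 genes of abscisic acid synthesis and breakdown, 5 had a start region, with a median change of 0.041. Among these 5 regions, 2 were higher (AAO3 and CYP707A3) and 1 lower (ABA2, −0.14) at an unadjusted p under 0.05 by edgeR. In RNA, 2 of the 5 genes were called higher. These were AAO3, whose enzyme makes abscisic acid from its aldehyde, and ABA1, the zeaxanthin epoxidase early in the same pathway. The AAO3 region had 43.5 and 39.6 CPM under stress and 23.4 and 35.6 CPM in controls, a change of 0.45 ± 0.17, which was 0.22 without control replicate 1. RNA of AAO3 was 25.2 and 24.0 CPM under stress and 12.4 and 12.8 CPM in controls, a change of 0.96 (edgeR adjusted p 0.0343). CYP707A3, which breaks abscisic acid down, had 63.2 and 64.6 CPM at its start under stress and 49.0 and 51.9 CPM in controls, a change of 0.33 ± 0.05 (edgeR adjusted p 0.0948), with no RNA call (0.67).

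Of 18 osmotic stress effector genes, 8 had a start region, with 1 region higher and 0 lower at an unadjusted p under 0.05 by edgeR. In RNA, 1 of these genes was called higher. This was P5CS1, which encodes the enzyme that limits proline synthesis, with 70.3 and 69.5 CPM of RNA under stress and 26.7 and 26.5 CPM in controls (1.39, edgeR adjusted p 0.032). Its start region had 86.8 and 93.2 CPM under stress and 73.7 and 81.5 CPM in controls, a change of 0.21 ± 0.07 (edgeR adjusted p 0.224). Of 25 water channel genes, 6 had a start region, none with an unadjusted p under 0.05, and 1 was called in RNA. NIP5;1, a boric acid channel of the root surface, had 755 and 766 CPM of RNA under stress, against 182 and 138 CPM in controls (2.25, edgeR adjusted p 0.032). Its start region had 52.4 and 52.1 CPM under stress and 53.3 and 48.0 CPM in controls, a change of 0.05 ± 0.07. The NIP5;1 start was thus about as accessible in both groups while its RNA differed. Auxin genes, with 12 of 36 starts, had a median region change of 0.0077, with 2 regions higher and 0 lower at an unadjusted p under 0.05. Of these 12 genes, 1 was called lower in RNA (IAA1, an auxin-induced repressor, −1.16). Heat shock genes, with 5 of 20 starts, had 0 regions higher and 2 lower at an unadjusted p under 0.05. None of these 5 genes was called in RNA, while 1 of all 18 tested genes of the list was called lower.

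Of 26 genes of ion and phosphate transport, 5 had a start region, 6 regions in all. Their median accessibility change was 0.096, with 0 regions higher and 1 lower at an unadjusted p under 0.05 by edgeR. In RNA, 2 of the 5 genes were called higher. One of these 2 was FRU, also named FIT, the bHLH factor that switches on iron uptake in the root epidermis together with bHLH38 or bHLH39. The bHLH38 region (chr3:21085096-21085877) had 51.5 and 61.7 CPM under stress and 38.4 and 41.8 CPM in controls, a change of 0.49 ± 0.10 (edgeR adjusted p 0.116), and 0.43 with the offset. RNA of bHLH38 was 31.4 and 26.4 CPM under stress and 10.9 and 8.18 CPM in controls (1.62, edgeR adjusted p 0.0353). The region of its neighbour bHLH39 had a change of 0.19, with an RNA change of 1.67, and FRU had 0.13 in its region and 1.44 in RNA. NAS2, whose enzyme makes the metal chelator nicotianamine, had a region change of 0.44 and an RNA change of 2.57. RNA of all 4 genes was called higher by edgeR, which called none of their regions, while DESeq2 called the region of bHLH38.

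Defence and jasmonate genes with a start region had edgeR RNA calls in the lower direction only. Of 44 listed genes, 17 had a start region, with a median accessibility change of −0.036, 0 regions higher and 3 lower at an unadjusted p under 0.05, and 0 of 17 called higher and 4 lower in RNA. WRKY38 encodes a factor that dampens basal defence. Its start region (chr5:7496482-7497382) had 36.9 and 39.0 CPM under stress and 45.2 and 58.0 CPM in controls, a change of −0.47 ± 0.11 (edgeR adjusted p 0.144). Without control replicate 2 the change was −0.25. RNA of WRKY38 was 5.38 and 7.51 CPM under stress and 33.1 and 56.0 CPM in controls, a change of −2.80 (edgeR adjusted p 0.0358). RBOHD, the oxidase of the defence burst of reactive oxygen, had a region change of −0.16 and an RNA change of −1.16 (edgeR adjusted p 0.032). For AOC1, of jasmonate synthesis, control replicate 2 alone was high, with region values of 17.58 and 17.35 CPM under stress and 14.5 and 33.9 CPM in controls, and RNA of 2.81 and 2.06 CPM under stress and 3.70 and 81.7 CPM in controls.

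Some genes with called lower RNA under stress had starts with small accessibility changes. BIP3 encodes a chaperone of the endoplasmic reticulum that is made when unfolded proteins build up. Its RNA was 0.696 and 0.638 CPM under stress and 5.11 and 8.23 CPM in controls (−3.34, edgeR adjusted p 0.032). The BIP3 region (chr1:2931739-2932526) had 55.6 and 58.0 CPM under stress and 43.7 and 57.9 CPM in controls, a change of 0.13 ± 0.12 that was −0.03 without control replicate 1. The folding helpers PDIL1-2 and P58IPK of the same compartment had RNA changes of −1.14 and −1.20, which were called, and region changes of 0.12 and −0.09. GDPD2, a phosphodiesterase gene of phosphate starvation, had 318 and 322 CPM of RNA under stress and 1119 and 1650 CPM in controls, a called change of −2.11, with a region change of 0.07. AT2G17880, a DnaJ-domain protein gene, differed from these, with 29.7 and 29.9 CPM at its start under stress and 46.1 and 41.8 CPM in controls. Its region change was −0.55 ± 0.08 (edgeR adjusted p 0.0851), −0.23 with the offset, beside an RNA change of −3.12.

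Housekeeping groups had median accessibility changes near 0. Of 29 constitutive genes, 20 had a start region, with a median accessibility change of −0.020, 0 higher and 2 lower at an unadjusted p under 0.05, and 1 of 20 called higher in RNA. The largest of these was UBQ14, a ubiquitin gene, with 65.8 and 63.9 CPM under stress and 79.9 and 75.1 CPM in controls (−0.25). Ribosome and translation genes, with 12 of 24 starts, had a median accessibility change of −0.043, with 0 regions higher and 1 lower at an unadjusted p under 0.05. None of these 12 genes was called in RNA. Their median RNA change was −0.54. RNA summed over the 24 genes was 13986 and 13311 CPM under stress and 21424 and 17833 CPM in controls. Counts of near-identical family members, such as ubiquitin, tubulin and light-harvesting genes, are uncertain where reads could belong to another copy.

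The share of cell type markers with a start region differed between the lists, and it was not tested against the 31.5% of all protein-coding genes. None of 10 endodermis markers, 1 of 16 suberin markers, 1 of 16 stem cell niche markers, 2 of 18 xylem markers and 3 of 19 phloem markers had one. The counts were 6 of 15 for pericycle and stele, 6 of 25 for trichoblasts, 2 of 9 for atrichoblasts, 2 of 7 for the root cap and 1 of 2 for the cortex. Among cell cycle genes, 14 of 21 mitosis markers and 12 of 22 markers of DNA replication did. All 6 root hair (trichoblast) markers with a start region had an accessibility change below 0, with a median of −0.10, and edgeR called none of the 6 in either readout. RNA summed over all 25 trichoblast markers was 1276 and 1344 CPM under stress and 817 and 946 CPM in controls, and 4 of the 25, none of them among the 6, were called higher in RNA. Mitosis markers summed to 363 and 360 CPM under stress and 725 and 416 CPM in controls, with a median region change of −0.019 over the 14.

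Because both readouts came from the same nuclei, accessibility was compared between nuclei with and without an RNA count of the gene. For each region and library, the rate of region counts per peak count in nuclei with an RNA count was divided by the rate in nuclei without one, within 5 strata of RNA depth. For 6432 start regions with enough nuclei in every library, the mean log2 ratio over the 4 libraries had a median of 0.037. Library medians were 0.045 and 0.047 under stress and 0.066 and 0.052 in controls. Each of these was taken over the regions with enough nuclei in that library, from 6438 in control replicate 1 to 7768 in stress replicate 1. The ratio was above 0 in all 4 libraries for 1107 regions (17.2%) and below 0 in all 4 for 237 (3.68%). With no strata the median was 0.017, with 941 regions above 0 and 348 below, and with strata of peak count in place of RNA depth it was 0.0085, with 812 above and 395 below. With the RNA of the nearest other gene in its place, over the 2828 regions with both values, 283 (10.0%) were above 0 in all 4 libraries, against 488 (17.3%) with the own gene. Regions whose gene was called higher in RNA were above 0 in all libraries in 56 of 147 cases (38.1%), and those called lower in 21 of 71 (29.6%). For genes not called this share was 16.6%. The ratio was thus close to 0 in most regions. Nuclei of a library differ in type, whose part in the ratio was not tested.

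The highest ratios lay near a log2 of 1. AT2G16750, a kinase-domain protein gene, had log2 ratios of 1.17 and 1.07 in stress libraries and 1.02 and 0.99 in control libraries (mean 1.06 ± 0.08, SD, n = 4). CYCB2;1, a cyclin of mitosis, had 0.79 and 0.97 under stress and 0.78 and 1.12 in controls. With the RNA of the nearest other gene, the mean ratio at the CYCB2;1 start was 0.13. The receptor kinase gene AT5G59680 had 0.84 and 0.88 under stress and 1.63 and 1.04 in controls, and the GRAS factor gene AT1G63100 had 1.16 and 0.89 under stress and 0.83 and 0.66 in controls. TRI, PARG2, AT5G45240, OFP17, AT5G02170 and WNK3 completed the 10 highest, as ranked by the lowest of the 4 values. WRKY38, outside these 10 by its lowest value, had 1.40 and 1.02 under stress and 0.88 and 0.49 in controls. At the other end, SPC98, a gene of the complex that nucleates microtubules, had −0.30 and −0.89 under stress and −0.30 and −0.48 in controls. AT1G54260, AT3G04590, AT1G80150 and AT5G48530 also lay below 0 in every library. The order of the highest ratios went by the lowest library of each region and that of the lowest ratios by its highest library, so that the choice itself fixed an equal sign in the libraries.

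**Figure D5:**
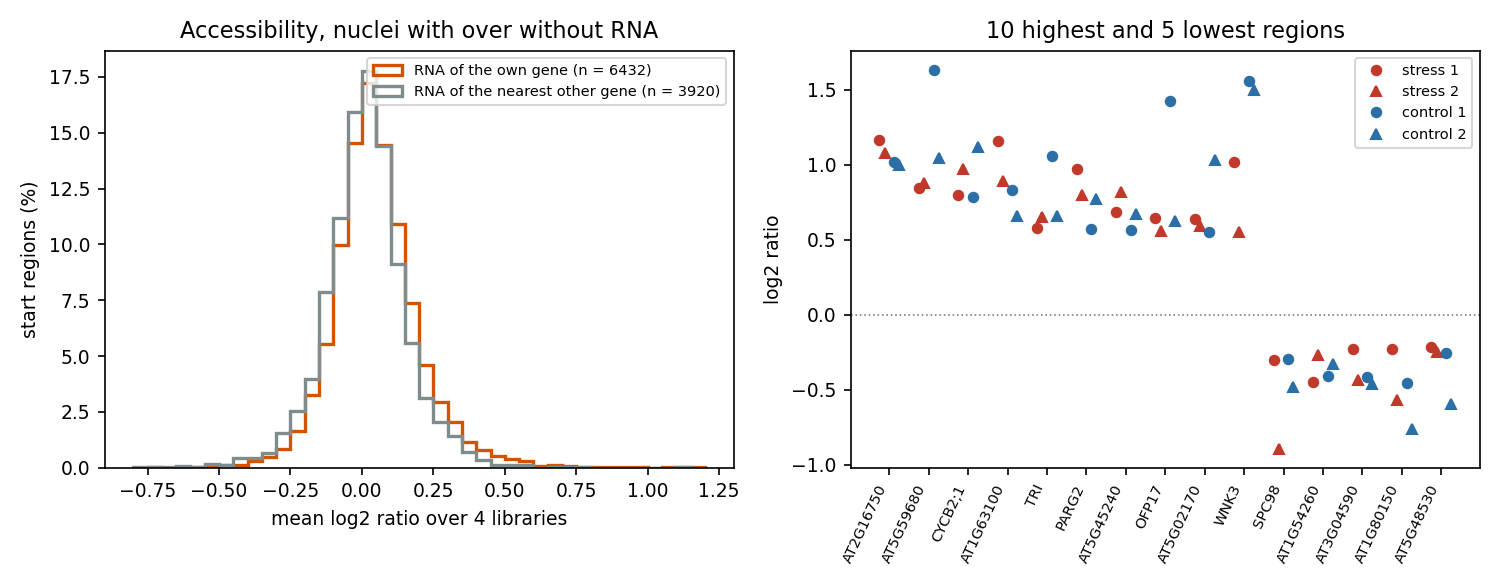
Left, percentage of start regions by mean log2 ratio of accessibility in nuclei with over nuclei without an RNA count, for the own gene and for the nearest other gene; right, the ratio in each library for the 10 highest and 5 lowest regions. AT2G16750 lies between 0.99 and 1.17 in all libraries and SPC98 between −0.89 and −0.30.

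Motifs were counted on both strands from 250 bases before to 50 bases after the start, a window of 300 bases. Among all 32546 gene starts 25.8% held ACGTG, against 30.2% of the 9175 genes with a start region and 20.8% of the genes without a peak. GGGCC showed a wider gap, with 27.5% of genes with a start region, 17.2% of all starts and 6.21% of genes without a peak. The palindrome CACGTG, which overlaps ACGTG on both strands, was held by 10.1% of genes with a start region, 7.11% of all starts and 3.49% without a peak. TATAAA was about as frequent in each, at 50.3%, 50.6% and 52.5%. TTGAC was held by 52.6% of genes with a start region and 49.9% of all starts, GAANNTTC by 10.9% and 11.6%, and AAACCCTA by 4.41% and 6.19%. These shares mix gene types, since all starts and the genes without a peak include noncoding genes. Among protein-coding genes alone, GGGCC was held by 27.7% of those with a start region and 18.3% of all, and ACGTG by 30.5% and 26.7%. Of the 243 genes called higher in RNA 33.3% held ACGTG and 59.3% held TTGAC, and of the 85 genes called lower 50.6% and 67.1% did. The shares over 85 genes rest on few genes, and no test was made.

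Start regions took 41.7% and 41.4% of all peak counts under stress, against 47.3% and 42.2% in controls, a difference of −3.18 percentage points with a two-sided exact permutation p of 0.333, the smallest that 2 against 2 libraries allow. Control replicate 1, with the fewest peaks, had the highest share. As a share of the counts in the shared regions the values were 50.5% in both stress libraries and 49.2% and 50.7% in controls, a difference of 0.51 points (exact permutation p of 1). The covered length of start regions was 7764373 and 7770012 bp under stress and 7741062 and 7772603 bp in controls. All peaks together covered 20164928 and 20598434 bp under stress, against 16523900 and 20085816 bp in controls. The share of counts divided by the share of covered length was 1.08 and 1.099 under stress and 1.01 and 1.09 in controls, and the groups overlapped.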

How the data were processed

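Single-nucleus multiome libraries of 2 stress and 2 control root tip samples were analysed. Per the labels and the methods of the study, the authors ran Cell Ranger ARC 2.0.2 on each library against TAIR10 and deposited raw counts, that is, RNA molecules (UMIs) per gene and transposition events per peak called in that library alone. Seurat 4.3.0 is named in the submitters' processing notes. Limits on nuclei are those of the study, applied to the deposited counts. It is not stated whether its limits on peak counts refer to transposition events or fragments. Doublets were not removed, and the study's filters that need fragments were not applied. The authors' annotation of nuclei was not used here.

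Peaks were merged as described, and counts were summed per library over kept nuclei, since nuclei are not replicates. A peak's counts were added to the region that holds it. Sums were tested with edgeR 4.0.16 (R 4.3.3, TMM, filterByExpr, quasi-likelihood test, Benjamini-Hochberg over all regions or genes, threshold 0.05), with DESeq2 1.42.0 as an alternative. CPM of regions are scaled to the counts in shared regions. The SE is the log2 change divided by the square root of F. Within-nucleus ratios are Mantel-Haenszel rate ratios, for genes with a count in at least 50 nuclei, and lacking one in at least 50 nuclei, of every library. On simulated data, the accessibility test recovered 99 of 100 regions changed by a log2 of 1 with 23 false calls among 18340 regions, and the RNA test 14 of 100 genes changed by 1 and 86 of 100 changed by 2, with 16 false calls among 20341 genes. Changes below 1 were not simulated, and the largest change of a start region was 0.93. How many regions with changes of the sizes seen here the test would recover is thus not known. The depth of a library limits the precision of each value, and the median start region held 1476 and 1301 counts under stress and 532 and 1194 in controls.

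TAIR10.1 was used for letters and gene types, after a check that each of the 32548 starts was at most 50 bp from its gene there. Pericentromeres were set at 11.5 to 17.7 Mb of chromosome 1, 1.1 to 7.2 of 2, 10.3 to 17.3 of 3, 1.5 to 6.3 of 4 and 9 to 16 of 5. Named regions were, where none passed the threshold, the 5 largest changes in each direction with an unadjusted p under 0.05, up to 4 members per list, the 10 highest and 5 lowest ratios and the 5 highest and lowest levels, and exceptions are stated. Rules, members and lists were chosen with earlier results of these data known. Alternatives were other scalings, filters, tests, limits on nuclei, equal numbers of nuclei, a covered-length offset, fragments in place of events, other definitions of covering a start, a replicate block and leaving out each library.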

Additional observations from a re-analysis of the deposited data

How the results depend on the processing

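The counts below are of start regions or of their genes. Besides the main fit, shares over all regions or genes are given above only for DESeq2, the offset and the fits without a control library. For the other settings the counts do not show whether start regions differ from the rest. DESeq2 called 131 start regions higher and 88 lower in accessibility, where edgeR called 0. With RNA limits alone on nuclei, every barcode, halved peak counts for the limits, equal nuclei, the covered-length offset and fragments, edgeR called 10, 9, 10, 1, 5 and 9 higher and 5, 5, 4, 1, 3 and 4 lower, and library sizes without TMM gave 1 lower. Leaving out a library gave 0 to 581 higher and 0 to 495 lower. For RNA (243 higher, 85 lower), DESeq2 called 448 and 415, no filter 365 and 172, RNA limits alone 470 and 260, and every barcode 676 and 448. Library sizes without TMM gave 556 higher, halved limits 190 lower, and leaving out a library 0 to 2187 higher and 0 to 2323 lower. Called in both readouts were 49 regions by DESeq2, 4 with RNA limits alone, 5 with every barcode, 3 with halved limits, 2 with the offset and 3 with fragments, and 0 to 528 without a library.

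Deviations of same-numbered libraries from their group means correlated at 0.042 in regions and 0.109 in genes. With 2 libraries per group the deviations of replicate 2 mirror those of replicate 1. Each correlation thus rests on 1 comparison and cannot show whether replicate numbers pair the samples. With the replicate block, 0 start regions were called higher and 1 lower in accessibility, and 153 genes higher in RNA. In the lists, accessibility calls were 6 by DESeq2 and 1 with halved limits (0 to 19 without a library), and RNA calls, 26 in all, were 41 by DESeq2 and 42 with every barcode (0 to 95 without a library). The share of counts differed by 0.51 points over shared regions in place of −3.18. Ratios above 0 in every library (1107 of 6432, 17.2%) were 410 of 2353 with at least 2 RNA counts, and over 3 libraries, an easier criterion, 1573 of 6434 to 1807 of 7418 (24.4% in both).

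Signs turned for RNA of TTN9 (−0.12), with 0.016 for library sizes alone, 0.058 for RNA limits alone and 0.066 for every barcode. RNA of AT3G13510 (−0.18) gave 0.094 and 0.10 with these limits and −0.42 to 0.065 without a library, and RNA of HOL1 (0.09) gave −0.32 to 0.67 without a library. The AT1G20132 region gave 0.40 with the offset, and the BIP3 region −0.026 to 0.38 without a library. No filter, 0.5 of the width covered and 50 bp around the start gave 0 accessibility calls too. The causes were not tested. Control replicate 1 was the shallowest library, and its counts limit the precision of every comparison.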
